A study of Mus musculus with 6 samples.

Results

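The genes described here were 8 matrix metalloproteinase genes (Mmp2, Mmp3, Mmp8, Mmp9, Mmp10, Mmp12, Mmp13 and Mmp14) and 2 genes of tissue inhibitors of metalloproteinases (Timp1 and Timp3). They were chosen by symbol, and all 10 were among the 34590 gene symbols of the count files. Total RNA of skin biopsies was sequenced in 3 Tnip1+/+ libraries, called wild type here, and 3 Tnip1-/- libraries, called knockout. All 6 came from C57BL/6 skin treated with imiquimod for 2 days. Imiquimod activates Toll-like receptor 7 and gives a psoriasis-like inflammation, and the protein made from Tnip1 works with A20 to hold back NF-kB. The comparison was of imiquimod-treated skin with and without Tnip1. A difference present before treatment cannot be told apart from a difference in the response to it. The labels give neither age nor sex nor the deleted part of the gene, and skin without imiquimod was not analysed here. The library codes in the labels hold the letters IMQ in the wild type group and NORM in the knockout group. The meaning of these letters is not given in the sources used here, and anything that goes with the codes cannot be told apart from genotype.

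Matrix metalloproteinases are zinc-dependent proteases that cut collagens, laminins and other proteins outside the cell. Most are secreted as inactive precursors, are activated by removal of a propeptide, and are then held in check by TIMPs, which block the active site. In wounded and psoriatic skin they take part in remodelling of the dermis, in migration of keratinocytes and in the passage of leukocytes through tissue.

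Of the 10 genes, 5 of the mouse proteases (Mmp3, Mmp8, Mmp10, Mmp12 and Mmp13) lie in a cluster of 10 Mmp genes on chromosome 9. The others lie on chromosomes 8 (Mmp2), 2 (Mmp9), 14 (Mmp14), X (Timp1) and 10 (Timp3). Sequence before the annotated start was taken from the RefSeq promoter table (GRCm38.p6), which matched 8 of the 10 genes, all but Mmp2 and Mmp9. It is shown because 4 of the genes that share the cluster also share the letters of an AP-1 site, the element bound by Fos and Jun proteins. Each line holds the 130 bases before a RefSeq start, 5′ to 3′ on the strand of the gene, and capitals mark TGAGTCA or its reverse complement TGACTCA. The Mmp12 line is that of the downstream of its starts. Mmp1b, a neighbour in the cluster, and Mmp8, which has no such match, are shown for comparison.
Mmp13 (chr9:7272384-7272513, plus strand): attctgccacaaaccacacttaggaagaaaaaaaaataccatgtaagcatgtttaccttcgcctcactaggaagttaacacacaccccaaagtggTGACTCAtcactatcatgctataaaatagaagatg
Mmp12 (chr9:7347244-7347373, plus strand): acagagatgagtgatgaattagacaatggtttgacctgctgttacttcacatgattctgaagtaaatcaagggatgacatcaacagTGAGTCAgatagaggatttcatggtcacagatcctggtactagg
Mmp3 (chr9:7445692-7445821, plus strand): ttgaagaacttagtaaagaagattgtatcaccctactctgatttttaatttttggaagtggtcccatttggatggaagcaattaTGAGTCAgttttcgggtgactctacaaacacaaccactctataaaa
Mmp10 (chr9:7502212-7502341, plus strand): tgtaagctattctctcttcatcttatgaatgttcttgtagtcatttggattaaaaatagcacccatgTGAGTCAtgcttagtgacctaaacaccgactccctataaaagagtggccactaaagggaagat
Mmp1b (chr9:7388027-7388156, minus strand): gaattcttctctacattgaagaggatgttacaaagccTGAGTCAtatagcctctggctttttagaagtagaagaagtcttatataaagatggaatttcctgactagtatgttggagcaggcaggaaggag
Mmp8 (chr9:7558299-7558428, plus strand): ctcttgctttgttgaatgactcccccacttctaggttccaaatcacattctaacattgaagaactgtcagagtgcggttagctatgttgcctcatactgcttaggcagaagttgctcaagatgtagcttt

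In windows from 250 bases before to 50 after a start, the AP-1 letters were present in 4 of the 8 matched genes and in 5.2% of all 32851 RefSeq promoters. Their first base stood 35 bases before the start in Mmp13, 44 in Mmp12, 46 in Mmp3 and 63 in Mmp10. Over the cluster, 7 of 10 genes held them, also Mmp1b, Mmp1a and Mmp7. The letters TATAAA were present in 5 of the 8 matched genes and in 13.6% of all promoters. A 10-base NF-kB motif matched in 0 of the 8 genes and 0 of the 10 cluster genes, and in 0.411% of all promoters. At so low a share 0 was the likely outcome for so few genes, and no conclusion is drawn from it. Sequence farther from the start was not searched. All 3 motifs were read on both strands, and no match of one overlapped a match of another in these genes. A match describes letters only, and the files hold no measure of factor binding.

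Tnip1 itself was at 25.1 to 28.1 CPM (counts relative to library size, with TMM scaling) in wild type skin and at 1.57 to 2.02 CPM in knockout skin. Summed gene counts ran from 24701074 to 31005554 per wild type library and from 19529970 to 25864730 per knockout library, and 3 counts correspond to 0.0899 to 0.157 CPM. By edgeR's quasi-likelihood test 45.1% of 16691 tested genes differed at an adjusted p under 0.05, 22.3% higher and 22.7% lower in knockout skin. Levels of all 3 knockout libraries lay outside the range of the 3 wild type libraries in 59.8% of tested genes. Wild type replicate 1 stood apart in collagen and several proteases, with 2352 CPM of Col1a1 against 180.1 and 316.6 CPM in wild type replicates 2 and 3. In such bulk tissue, fewer cells of a type and less RNA per cell cannot be told apart.

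Of the 10 genes, 5 rose in knockout skin (Mmp3, Mmp8, Mmp10, Mmp13 and Timp1), 1 fell (Timp3) and 4 did not pass the test (Mmp2, Mmp9, Mmp12 and Mmp14). Of all tested genes, 22.3% were called higher and 22.7% lower. All 10 passed the filter on low counts. Their median log2 fold change, knockout minus wild type, was 1.24, where that of all tested genes was -0.04. The 6 called genes were also the 6 whose groups did not overlap. Knockout libraries lay above wild type throughout in 5 genes and below in 1, beside 29.2% and 30.5% of all tested genes.

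**Figure D1:**
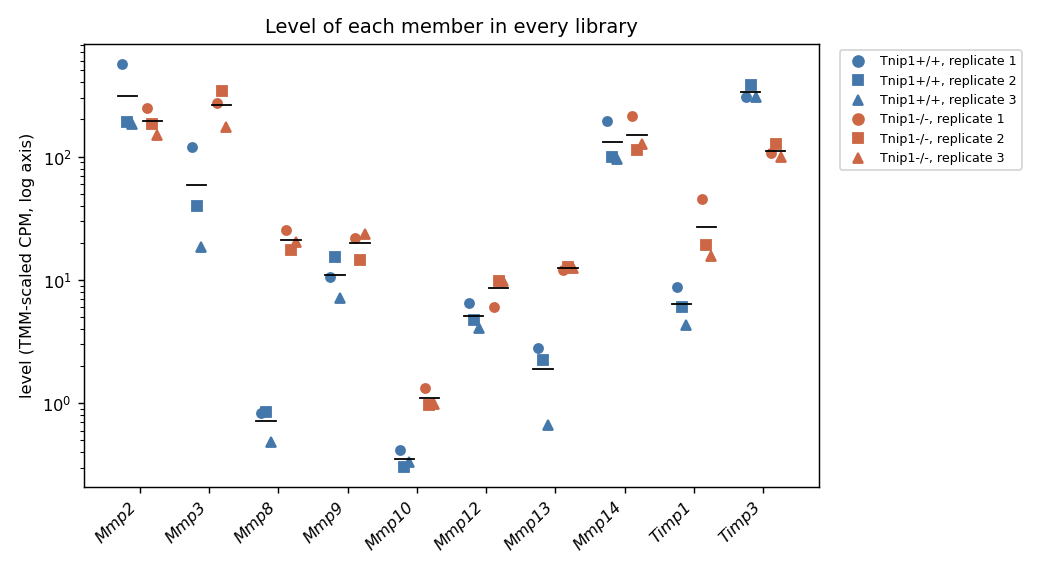
Level of the 10 genes in each library (TMM-scaled CPM, log axis). Points are libraries, blue wild type and orange knockout, with the symbol giving the replicate, and black lines are means of 3 libraries. Knockout libraries lie above wild type for Mmp3, Mmp8, Mmp10, Mmp13 and Timp1 and below for Timp3.

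Collagenases cut the triple helix of fibrillar collagen, and Mmp8 and Mmp13 belong to this class. Mmp8, the collagenase stored in neutrophil granules, stood at 0.839, 0.849 and 0.481 CPM in wild type replicates 1, 2 and 3 and at 25.5, 17.5 and 20.2 CPM in the knockout replicates. Every knockout library was far above every wild type library, and wild type replicate 3 was the low one of its group. The log2 fold change of Mmp8, which rose, was 4.84 (SE 0.27, adjusted p = 1.62e-04, edgeR, Benjamini-Hochberg adjustment), or 28.7-fold. The wild type level rested on 66 counts over 3 libraries against 1393 in knockout.

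Mmp13, the collagenase of keratinocytes, fibroblasts and bone cells, was nearly the same in the 3 knockout libraries, at 12.1, 12.8 and 12.5 CPM. Wild type libraries held 2.82, 2.24 and 0.666 CPM. Replicate 3 was the low one, and the groups did not overlap. Mmp13 rose by 2.69 (SE 0.44, adjusted p = 0.00404, same edgeR test), from 1.91 ± 1.11 to 12.5 ± 0.387 CPM (SD, n = 3). Of a list of chondrocyte and osteoblast markers, only 1 of 6 was abundant enough to test, and it was not called. Ibsp and Bglap, which encode bone matrix proteins, had no count in any library. The list summed to 4.65 to 8.25 CPM in wild type and 3.39 to 4.53 CPM in knockout skin. Keratinocyte markers were mixed: 4 of 7 were higher and 2 lower in knockout skin, where 22.3% and 22.7% of all tested genes were. The list summed to 6681 to 10926 CPM in wild type and 19002 to 21858 CPM in knockout libraries. Krt14, of basal keratinocytes, was 5.82-fold higher, from a mean of 1983 to 11543 CPM, and made up most of the rise in the sum. Krt15 was 8.45-fold and Krt10 1.93-fold lower in knockout skin, and Trp63 was not called. The part of keratinocytes in the Mmp13, Mmp10 and Mmp9 values was not tested.

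Stromelysins have a wide range of substrates and can activate other proMMPs. Mmp3, stromelysin 1, was the protease of this set with the most counts in knockout skin, at 272, 343 and 174 CPM. In wild type skin it was at 119, 39.4 and 18.5 CPM, so that replicate 1 came nearest to the knockout range without entering it. Mmp3 rose by 2.16 (SE 0.65, adjusted p = 0.0318, same edgeR test). The size depended on single libraries: it was 3.2 without wild type replicate 1. The call was lost without wild type replicate 2 (1.93, adjusted p = 0.101), knockout replicate 1 (2.14, 0.0698) or knockout replicate 2 (1.93, 0.0766), where adjusted p ranged from 0.00570 to 0.101 over all 14 alternatives.

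Mmp10, stromelysin 2, which migrating keratinocytes at wound edges make, was the least abundant of the set. Wild type libraries held 14, 9 and 9 counts of it and knockout libraries 31, 23 and 19, or 0.306 to 0.420 and 0.973 to 1.33 CPM. The groups did not overlap in spite of the low level. Mmp10 rose by 1.62 (SE 0.30, adjusted p = 0.00564, same edgeR test), and the ratio of summed counts, scaled to library size, was 3.11 (95% exact interval 2.02 to 4.86, counting error only).

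Gelatinases degrade denatured collagen and the type IV collagen of basement membranes, and neither of this set passed the test. Mmp2, made mainly by fibroblasts, stood at 562, 191 and 183 CPM in wild type and at 247, 184 and 149 CPM in knockout skin. The groups overlapped, and wild type replicate 1 was the highest by far. The log2 fold change was -0.69 (SE 0.45, adjusted p = 0.245, same edgeR test) and 0.06 without that library, so no direction is given. Of 9 fibroblast markers 0 were higher and 3 lower in knockout skin, where 22.3% and 22.7% of all tested genes were. Their sum, mostly collagen, was 6617 to 16629 CPM in wild type libraries, highest in replicate 1, and 6278 to 6968 CPM in knockout libraries. Among wild type libraries Col1a1, Col1a2, Col3a1 and Pdgfrb were highest in replicate 1, Dcn and Lum in replicate 2, and Pdgfra, Fbln1 and Thy1 were lowest in replicate 1. Their part in the Mmp2 value was not tested.

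Mmp9, the gelatinase of neutrophils, macrophages and activated keratinocytes, stood at 10.5, 15.3 and 7.14 CPM in wild type and at 21.9, 14.5 and 23.5 CPM in knockout skin. Knockout replicate 2 lay below wild type replicate 2, so the groups overlapped. The log2 fold change was 0.86 (SE 0.31, adjusted p = 0.0551, same edgeR test). Mmp9 passed with DESeq2 (adjusted p = 0.0194), limma voom (0.0494) or no filter (0.0449), and without wild type replicate 2 (1.18, 0.0233) or knockout replicate 2 (1.07, 0.0401). Over all 14 alternatives its adjusted p ranged from 0.0194 to 0.141 and its value from 0.64 to 1.18.

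Neutrophil markers moved with Mmp8, which neutrophils store. Of 8 tested neutrophil markers 7 were higher in knockout skin and 0 lower, beside 22.3% and 22.7% of all tested genes. The median log2 fold change of these markers was 3.53. The whole list, 11 genes in the files, summed to 113 to 233 CPM in wild type and 273 to 357 CPM in knockout libraries. Of the defining markers, Ly6g was at 0 in all 3 wild type libraries and had 9, 0 and 4 counts in the knockout libraries. Itgam, which was not called, made up most of the wild type sum, at 96.6 to 214 CPM. The granule genes Ngp, Camp and Ltf all rose, from 5, 2 and 17 counts over the wild type libraries to 106, 39 and 116 over the knockout libraries. The granule genes Mpo and Elane were too low to test. The part of neutrophils in the Mmp8 and Mmp9 values was not tested.

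Mmp12, the macrophage elastase, stood at 6.53, 4.75 and 4.07 CPM in wild type and at 6.07, 9.78 and 9.81 CPM in knockout skin. Knockout replicate 1 lay within the wild type range and the other knockout libraries above it. The log2 fold change was 0.74 (SE 0.27, adjusted p = 0.0581, same edgeR test). It passed with DESeq2 (0.76, adjusted p = 0.0300) and without wild type replicate 1 (0.97, 0.0365) or knockout replicate 1 (0.94, 0.0310), with a range of 0.0300 to 0.152 over 14 alternatives. Exons of Mmp12 and Mmp1b overlap on opposite strands in a later annotation (GENCODE M21). The strand option of the counting is not given in the sources used here. Reads in the overlap may have been left out or counted for either gene. Macrophage markers were 4 of 9 higher and 0 lower, beside 22.3% and 22.7% of all tested genes. Their summed levels were 1323 to 1986 CPM in wild type and 2131 to 2667 CPM in knockout skin. Among them Lyz2 rose from a mean of 414 to 919 CPM and Mrc1 from 250 to 532 CPM. Cd68 (-0.44), C1qa (-0.47), C1qb (-0.52) and Cd163 (-0.26) had negative log2 fold changes and were not called. The part of macrophages in the Mmp12 value was not tested.

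Mmp14, a membrane-anchored protease that activates proMMP2 together with TIMP2, stood at 196, 98.8 and 96.2 CPM in wild type and at 212, 112 and 127 CPM in knockout skin. Replicate 1 was the highest in each group, and the groups overlapped. The log2 fold change was 0.21 (SE 0.35, adjusted p = 0.646, same edgeR test), and -0.11 without knockout replicate 1.

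The TIMP genes moved in opposite directions. Timp1, a secreted inhibitor induced by cytokines in injured tissue, stood at 8.81, 5.98 and 4.29 CPM in wild type and at 45.2, 19.3 and 15.7 CPM in knockout skin. All knockout libraries were above all wild type libraries, and knockout replicate 1 was the highest of its group. Timp1 rose by 2.07 (SE 0.46, adjusted p = 0.0108, same edgeR test), and by 1.46 without knockout replicate 1 (adjusted p = 0.0182, with a range of 1.33e-05 to 0.0399 over 14 alternatives).

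Timp3, which is bound to the extracellular matrix and also inhibits ADAM17 and aggrecanases, stood at 305, 382 and 306 CPM in wild type and at 107, 127 and 98.9 CPM in knockout skin. The groups were far apart, with little spread within each. Timp3 fell by 1.58 (SE 0.15, adjusted p = 7.62e-04, same edgeR test), so that the wild type level was 2.99-fold that of the knockout. Timp1 lies within Syn1 and Timp3 within Syn3, each on the opposite strand. Exons of Timp3 and Syn3 overlap in GENCODE M21, and Syn3 had 9 to 45 counts per library beside 1895 to 11260 of Timp3. The ratio of Timp3 to Timp1 counts, which does not depend on library scaling, was 34.7, 64 and 71.2 in wild type and 2.36, 6.60 and 6.32 in the knockout libraries. Skeletal muscle markers (7 of 7) and adipocyte markers (2 of 6) were also called lower in knockout skin, where 22.7% of all tested genes were. Knockout libraries lay below wild type throughout in 7 of 7 and 6 of 6, beside 30.5% of all tested genes. The muscle list summed to 9237 to 16020 CPM in wild type and 3082 to 4523 CPM in knockout libraries, and the adipocyte list to 1964 to 3755 and 72.2 to 1244 CPM. Knockout replicate 2 was the low one for adipocyte markers, at 72.2 CPM against 1244 and 1058 CPM in knockout replicates 1 and 3. The part of muscle and fat in the Timp3 value was not tested.

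**Figure D2:**
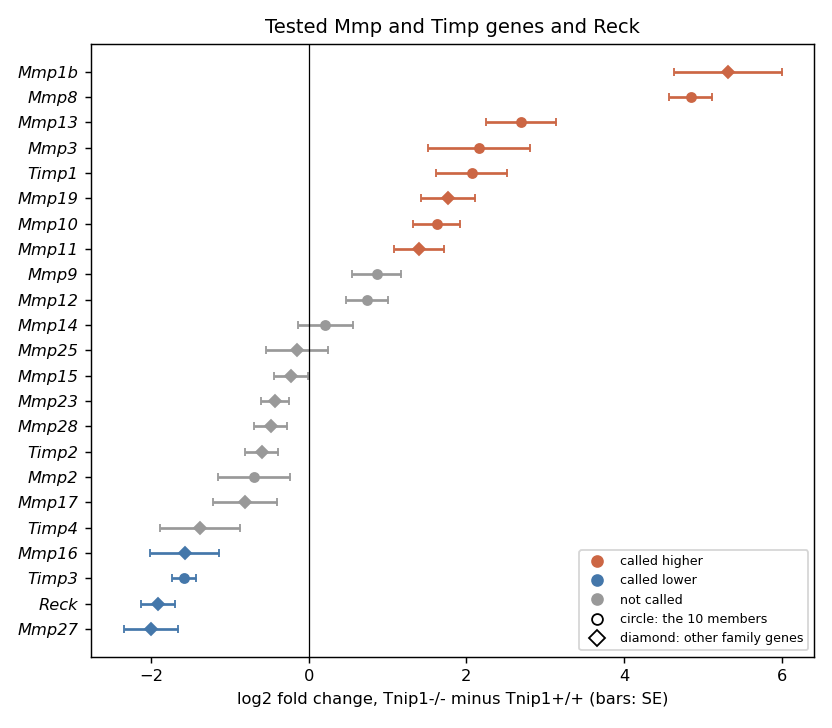
Log2 fold change, knockout minus wild type, of every tested Mmp and Timp gene and Reck, with bars of 1 SE. Circles are the 10 genes described first and diamonds the other family genes, orange for called higher, blue for called lower and grey for not called. Mmp1b and Mmp8 lie farthest to the right, and Mmp27, Reck, Timp3 and Mmp16 are the called decreases.

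Levels were put on a scale per length (CPM per kb of exon, exon lengths from GENCODE M21) to compare genes with each other. In wild type skin the order was Mmp2 (101 ± 70.3), Timp3 (70.1 ± 9.39), Mmp3 (32.8 ± 29.5), Mmp14 (31.1 ± 13.6), Timp1 (7.16 ± 2.57) and Mmp9 (3.46 ± 1.30, SD, n = 3), followed by Mmp12, Mmp13, Mmp8 and Mmp10. Only the steps from Mmp14 to Timp1 and from Mmp9 to Mmp12 separated neighbours whose libraries did not overlap. In knockout skin Mmp3 came first (146 ± 47.2), above the range of Mmp2 (62.9 ± 16.2). Mmp14 (36.0 ± 12.8), Timp1 (30.1 ± 18.1) and Timp3 (23.5 ± 3.08) followed with overlapping neighbours. Mmp8 (8.69 ± 1.67) then stood sixth, where it had been ninth in wild type skin, and Mmp10 was last in each group.

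Shares of the summed length-scaled level show the change in make-up within a library, whatever its scaling. Mmp2 made up 60.4%, 54.0% and 61.5% of the 8 protease genes in wild type libraries and 26.2%, 20.1% and 24.3% in knockout libraries. Mmp3 made up 21.9%, 19.0% and 10.6% and then 49.3%, 64.2% and 48.6%. In every wild type library Mmp2 was the larger share, and in every knockout library Mmp3 was. Among the 4 Timp genes, Timp1 made up 4.14% to 6.46% in wild type and 24.0% to 43.9% in knockout libraries, Timp3 42.1% to 56.5% and 19.5% to 29.7%, and Timp2 37.2% to 50.2% and 36.0% to 46.0%. The ratio of all 23 Mmp genes to all 4 Timp genes was 2.27, 1.27 and 1.23 in wild type and 3.29, 3.76 and 3.39 in the knockout libraries. These ratios did not overlap between the groups, and 3 libraries against 3 cannot give an exact permutation p below 0.1. The summed Mmp level itself overlapped, at 143.9 to 349.1 CPM per kb in wild type and 247.3 to 382 in knockout libraries. The Timp sum did not, at 116.8 to 153.6 and 73.04 to 115.9 CPM per kb. The ratios are of transcripts and say nothing of protease activity.

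**Figure D3:**
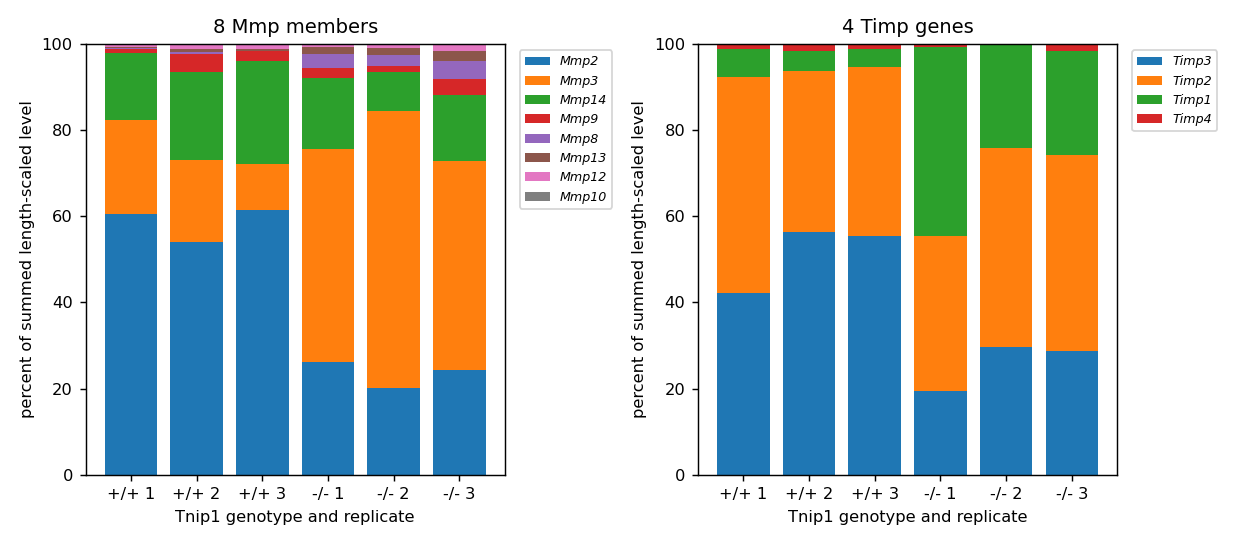
Shares of the summed length-scaled level in each library, for the 8 Mmp genes (left) and the 4 Timp genes (right). Each bar is a library and adds to 100 percent. The Mmp2 share is 54.0% to 61.5% in wild type and 20.1% to 26.2% in knockout libraries, and the Timp1 share is 4.14% to 6.46% in wild type and 24.0% to 43.9% in knockout libraries.

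Along the cluster on chromosome 9 the order is Mmp13, Mmp12, Mmp1b, Mmp3, Mmp1a, Mmp10, Mmp8, Mmp27, Mmp20 and Mmp7. Of these 10 genes 7 were tested, of which 5 rose and 1 fell, where 22.3% of all tested genes were called higher and 22.7% lower. Mmp1b, 1 of the mouse counterparts of the interstitial collagenase gene, was counted 0, 0 and 1 times in the wild type libraries and 17, 15 and 10 times in those of knockout skin. Scaled to library size, the ratio of its summed counts was 57.2 (95% exact interval 9.72 to 2311, counting error only). Mmp1b rose by 5.32 (SE 0.68, adjusted p = 0.00182, same edgeR test), and the fitted value was 7.04 without wild type replicate 3, which held the only wild type count. Since reads of Mmp1b could also match the closely related Mmp1a, and Mmp12 overlaps Mmp1b, the value is uncertain. Mmp1a had 0, 2 and 3 counts in the knockout libraries and none in wild type, Mmp20 had 1 count in 1 knockout library, and Mmp7 had none in any library.

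Mmp27, next to Mmp8 in the cluster, went the other way. It stood at 31.6, 72.9 and 40.9 CPM in wild type and at 12.2, 8.97 and 15.2 CPM in knockout skin. The groups did not overlap, and Mmp27 fell by 2.0 (SE 0.34, adjusted p = 0.00465, same edgeR test). Of the cluster genes with AP-1 letters in the promoter window, 4 rose (Mmp13, Mmp1b, Mmp3 and Mmp10), Mmp12 was not called, and Mmp1a and Mmp7 were too low to test. Mmp8 and Mmp27, called in opposite directions, had no such letters in theirs.

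**Figure D4:**
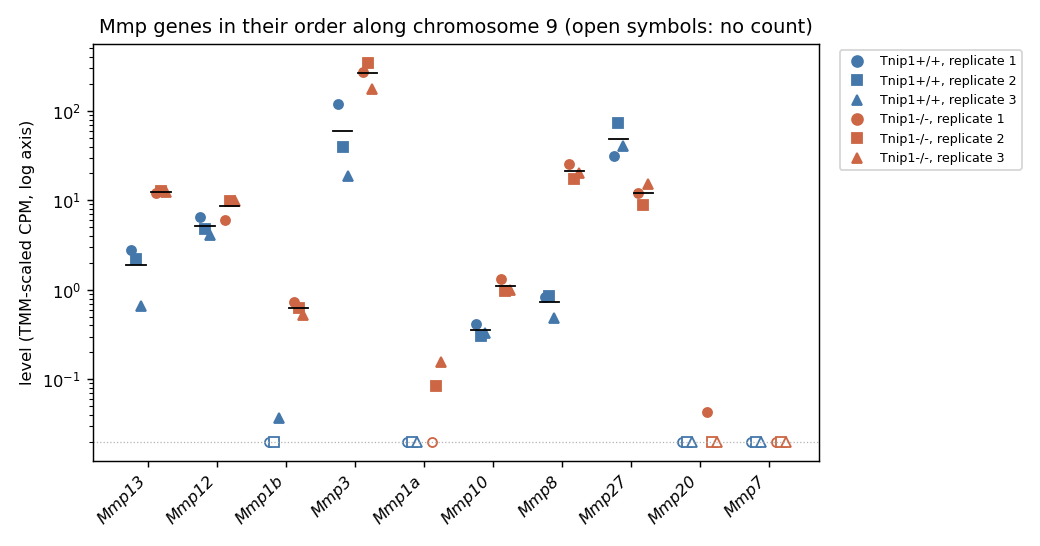
Level of the 10 Mmp genes of the chromosome 9 cluster in their order along the chromosome (TMM-scaled CPM, log axis). Points are libraries, open symbols on the dotted line are libraries with no count, and black lines are means where all 3 libraries have counts. Mmp3 and Mmp27 are the most abundant genes in wild type skin, and Mmp27 is the only tested gene with knockout libraries below wild type.

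Outside the set of 10, 3 of 10 tested Mmp genes rose, 2 fell and 5 did not pass, beside the background of 22.3% and 22.7%. Besides Mmp1b, Mmp19 rose from 30.7 ± 5.11 to 104 ± 53.5 CPM (log2 1.77, SE 0.35) and Mmp11, the stromelysin 3 gene, from 6.61 ± 1.51 to 17.5 ± 6.35 CPM (log2 1.40, SE 0.32). Mmp16, a membrane-type protease gene, fell by 1.58 (SE 0.44, adjusted p = 0.0241, same edgeR test). It lost its call without wild type replicate 2 (adjusted p = 0.0631) or 3 (0.0678) or knockout replicate 1 (0.0578) or 2 (0.0685), with a range of 0.00277 to 0.0685 over 14 alternatives. The values of Mmp28 (-0.48), Mmp23 (-0.43), Mmp17 (-0.81), Mmp15 (-0.23) and Mmp25 (-0.15) did not pass. Mmp1a, Mmp7, Mmp20, Mmp21 and Mmp24 were too low to test, with 20 counts or fewer over the libraries of a group.

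Of the other inhibitors, 1 of 3 fell and 0 rose, too few to set against the 22.7% of all tested genes called lower. Reck, a membrane-anchored inhibitor of several of these proteases, stood at 54.9, 57.7 and 44.5 CPM in wild type and at 10.3, 18 and 13.4 CPM in knockout skin, and fell by 1.91 (SE 0.22, adjusted p = 0.00133, same edgeR test). Timp2 stood at -0.60 (adjusted p = 0.0530) and Timp4 at -1.38 (adjusted p = 0.0602) by the same edgeR test. Their knockout libraries all lay below wild type, as in 30.5% of all tested genes, and each passed under several alternatives. Timp2 ranged from 170 to 286 CPM in wild type and from 124 to 155 CPM in knockout libraries. Exons of Timp4 overlap those of Syn2, on the opposite strand, in GENCODE M21. Syn2 had 42, 95 and 77 counts in wild type libraries beside 379, 410 and 225 of Timp4. In the knockout libraries Syn2 had 93, 101 and 60 counts beside 112, 33 and 130 of Timp4, so the Timp4 value is uncertain.

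ADAM and ADAMTS genes encode metalloproteinases that shed membrane proteins or cut proteoglycans, and some relatives, such as that of Adam23, without protease activity. Of 25 tested genes 6 were higher and 8 lower, shares near those of all tested genes (22.3% and 22.7%). Adam8 rose by 1.48 (SE 0.20) and Adamts1 by 1.01 (SE 0.13), whereas Adam23 fell by 1.77 (SE 0.21) and Adamts14, a procollagen N-propeptidase, by 1.68 (SE 0.22). In these 4 genes the groups did not overlap. The number lower was 5 without wild type replicate 2, and 4 without either replicate 1 or replicate 2 of the knockout.

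A list on metalloproteinase activation and the plasminogen system, which also held Lcn2, had 8 of 16 tested genes higher and 1 lower. Of all tested genes 22.3% and 22.7% were. Lcn2, whose human counterpart binds MMP9 and shields it from breakdown, rose by 3.39 (SE 0.50). Furin, the protease that activates MMP14 within the cell, rose by 1.03 (SE 0.17). Serpinb2, an inhibitor of plasminogen activators, rose by 1.55 (SE 0.27), and Serpinf2, the plasmin inhibitor gene, fell by 1.88 (SE 0.34) from 51 counts over the wild type libraries to 10 over the knockout libraries. Activators and inhibitors were thus among the members of this list that rose. Without wild type replicate 3, or without replicate 1 or 2 of the knockout, 5 genes were higher, as with the replicate number as a block.

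Substrates of the extracellular matrix and basement membrane had 4 of 22 tested genes higher and 5 lower, shares near the 22.3% and 22.7% of all tested genes. Tnc, the tenascin C gene of wounded tissue, stood at 16.7, 21.1 and 21.6 CPM in wild type and at 1441, 562 and 415 CPM in knockout skin. It rose by 5.35 (SE 0.53, adjusted p = 8.20e-04, same edgeR test), and by 4.63 without knockout replicate 1. Nid1, of basement membrane nidogen, fell by 1.34 (SE 0.13) and Fn1, of fibronectin, by 1.24 (SE 0.26). The number higher was 8 without wild type replicate 1, and the number lower was 3 without wild type replicate 2 or with the replicate block, and 2 without replicate 2 or 3 of the knockout.

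Of 16 cytokine and AP-1 genes known to induce metalloproteinases, 8 rose and 0 fell, beside 22.3% and 22.7% of all tested genes, with a median log2 fold change of 0.72. Of the Fos and Jun genes, Fosl2 (0.82) and Jun (0.36) were called higher. Fos (0.05), Fosb (-0.66), Fosl1 (0.62), Junb (1.04) and Jund (0.19) were not called. Osm, the oncostatin M gene, rose from 0.518 to 0.781 CPM in wild type libraries to 2.66 to 3.92 CPM in knockout libraries (log2 2.47, SE 0.29). Il1b (2.83), Il1a (1.61) and Tnf (0.94) rose as well, Tnf losing its call without wild type replicate 3 (adjusted p = 0.0507), knockout replicate 2 (0.0669) or 3 (0.0671) and with the replicate block (0.0549), with a range of 0.00317 to 0.0671 over 14 alternatives by edgeR, DESeq2 or limma. Only 4 were called higher without wild type replicate 3 or without replicate 1 or 2 of the knockout, and 5 with library totals alone.

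**Figure D5:**
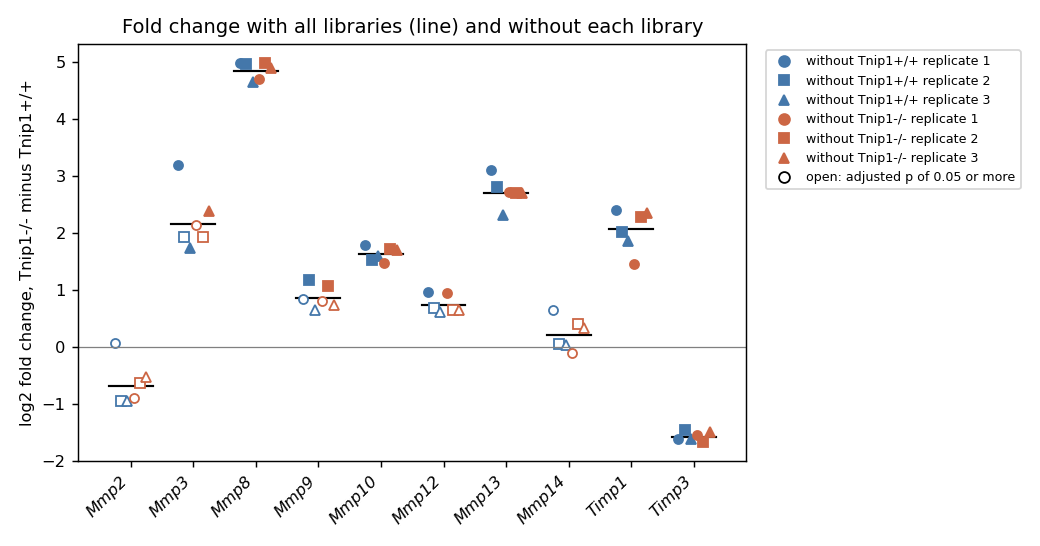
Log2 fold change of the 10 genes with all libraries (black line) and without each library in turn (symbols, open where the adjusted p was 0.05 or more). Mmp8, Mmp10, Mmp13, Timp1 and Timp3 stay called without any single library, Mmp3 ranges from 1.74 to 3.2, and Mmp2 moves from -0.69 to 0.06 without wild type replicate 1.

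Leaving out single libraries kept the calls of Mmp8 (4.65 to 4.98), Mmp13 (2.31 to 3.10), Mmp10 (1.47 to 1.79), Timp1 (1.46 to 2.39) and Timp3 (-1.67 to -1.46), as the plot of fold changes without each library shows. Mmp3 was the only called gene of the 10 that lost its call in any of them.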

How the data were processed

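Values were read counts per gene symbol, deposited as 1 file per library. The submitters' processing notes name HTSeq, STAR and BWA, CASAVA 1.7, R 3.2.3 and limma, with build mm9. Settings, strand option and annotation are not given in the sources used here. Libraries were stranded and depleted of ribosomal RNA, per the labels' protocols. The 5 summary lines of each file (26.7% to 30.3% of reads) were left out.

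The test was that of edgeR 4.0.16 under R 4.3.3 (quasi-likelihood fit after filterByExpr, TMM factors, Benjamini-Hochberg adjustment over 16691 genes, called under 0.05). An SE is the log2 fold change over the root of F. The procedure was tested on simulated data. Alternatives used DESeq2 1.42.0, limma 3.58.1, other factors and filters, a replicate block and leaving out each library. Each genotype had 3 libraries. Between replicates, chi-square over its degrees of freedom was 33.1 to 134, above sampling noise, and whether replicates were separate animals is not stated.

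Genes and lists were chosen with earlier results of these data known. Named genes are the 10 members, Tnip1, tested Mmp and Timp genes and Reck, and in each other list up to 4 called genes with the smallest p, of which 1 is not reported here. Marker genes, the Fos and Jun genes, Syn1, Syn2 and Syn3 were named after their values were seen. mm9 coordinates were not used, and exon lengths came from GRCm38.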

Additional observations from a re-analysis of the deposited data

How the results depend on the processing

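Of the 10 genes, 5 higher and 1 lower were called; the 8 alternatives that kept all libraries gave 4 to 7 higher and 1 lower, and leaving out a library gave 5 to 6 and 1. With 1 CPM required in 3 libraries Mmp10 was not tested. Tested genes called numbered 7525 and ranged from 5471 to 6866 without a library. The median log2 fold change of all genes was -0.19 with library totals alone (34.1% of calls higher, against 49.6%), and 42.0% were higher with upper-quartile factors. With totals alone 4 other Mmp genes, 3 other inhibitors and 2 plasminogen system genes were lower, and 5 inducers were higher. The other inhibitors called lower numbered 3 with DESeq2 and 2 with upper-quartile factors, voom, no filter, the stricter filter or the replicate block, against 1. With the stricter filter 0 plasminogen system genes were lower. With the replicate block 6465 genes were called, 5 plasminogen system genes were higher and 3 substrates lower. Replicate numbers were not taken as pairs: correlations of deviations between same-numbered libraries were 0.011, -0.209 and 0.193, and wild type replicate 1 went best with knockout replicate 2 (0.263). Without a library, ranges were 1 to 2 (other Mmp genes lower), 1 to 2 (other inhibitors lower), 5 to 7 and 4 to 6 (ADAM and ADAMTS, higher and lower), 5 to 7 (plasminogen system, higher), 3 to 8 and 2 to 5 (substrates, higher and lower) and 4 to 7 (inducers, higher). Direction turned for Mmp2 without wild type replicate 1 (0.0622; range without a library -0.953 to 0.0622), Mmp14 without knockout replicate 1 (-0.11; range -0.11 to 0.641), and Mmp25 without wild type replicate 1 (0.05) or knockout replicate 3 (0.17; range -0.446 to 0.17), with none of them called and the cause not tested. Of 557 values of named genes under alternatives, 519 kept direction and call.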

Other observations

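Wild type replicate 1 differed from the other wild type libraries in more than the proteases. Col1a1 had 78483 counts there and 5305 and 8559 in wild type replicates 2 and 3, and Col1a2 had 161314, 21728 and 25845. The immediate-early gene Fos had 6358, 538 and 309 counts, and Junb 7052, 1506 and 1710. High values of these 2 genes were not particular to that library. In knockout replicates 1, 2 and 3 Fos had 1330, 3574 and 381 counts and Junb 6593, 5440 and 2944. Dcn, a proteoglycan gene of the same dermal cells, had 113168, 124883 and 73595 in the wild type libraries and did not follow. Mmp2 (18753, 5636 and 4945 counts) and Mmp14 (6539, 2910 and 2600) were highest in the library with the most Col1a1. These genes were chosen after their values were seen.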
